A study of Homo sapiens with 4 samples.

Results

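The BCL2 family decides at the mitochondrial surface whether a stressed cell lives or dies, and 10 of its genes are described here, selected by symbol from the 60675 annotated genes of the count data. They are the pro-survival genes *BCL2*, *BCL2L1* (BCL-xL) and *MCL1*, the effectors *BAX* and *BAK1*, and the BH3-only genes *BCL2L11* (BIM), *PMAIP1* (NOXA), *BID*, *BAD* and *BIK*. RNA was sequenced from LNCaP, an androgen-responsive human prostate cancer line that came from a lymph node metastasis, grown in hormone-depleted medium. Both groups received the synthetic androgen R1881 at 1 nM for 72 h. The R1881 + vehicle group (2 biological replicates) received DMSO, the solvent of the inhibitor, and the R1881 + CPI-455 group (2 biological replicates) received CPI-455 at 50 µM, an inhibitor of the KDM5 family of histone H3K4 demethylases. A group without R1881 was not analysed here, so no value below is an androgen response, and 1 inhibitor in 1 cell line was measured at 1 dose and 1 time.

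Pro-survival members of the family hold the effectors and the BH3-only proteins in check by binding them. BH3-only proteins are the sensors: they occupy the groove of the pro-survival proteins or activate BAX and BAK directly, and each of them prefers particular partners, NOXA binding chiefly MCL1 and BAD binding BCL2 and BCL-xL. Freed BAX and BAK form pores in the mitochondrial outer membrane, cytochrome c escapes and caspases follow. Much of this control acts on protein amount and binding, which RNA counts do not measure.

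The libraries held 19623553 and 20690819 fragments on genes with vehicle and 9522920 and 5401588 with CPI-455, so the CPI-455 values rest on fewer fragments. Other properties of the libraries differed between the groups as well. The mitochondrial share of the fragments was 1.91 to 2.43% with vehicle and 0.967 to 1.24% with CPI-455, and the nuclear RNA MALAT1 took 0.0884 to 0.114% and 4.95 to 6.49%. Log2 fold changes over all genes leaned on exon length (Spearman's rho -0.25 across genes) and on exon GC content (0.15). All 10 markers of luminal prostate cancer cells were detected, with a summed level of 937 to 1012 CPM (normalized counts scaled to a common library total) with vehicle and 393 to 444 with CPI-455. Of the 10, 7 were called lower, where 21.3% of all genes tested were. *KLK2* rose by 0.56 on the log2 scale, and *TMPRSS2* and *KRT18* fell by less than 2-fold. *KRT8* (-1.07) was no longer called with the trend in exon length and GC content removed (-0.98). Basal, leukocyte and endothelial markers summed to at most 1.24 CPM in any library with KRT5 at 0 in all, and the fibroblast markers, mostly *COL1A1*, to 4.21 to 5.30 CPM and 10.3 to 10.7 CPM. Of the genes of the inhibitor's target family, *KDM5B* fell by 1.07 on the log2 scale (by 0.69, and no longer called, with the trend in exon length and GC content removed), *KDM5A* rose by 0.77 (edgeR adjusted p = 0.000367) and *KDM5C* had 0.03. The length and GC trend was removed as an alternative, whose values are given for some of the genes. Where none is given, the values may still differ. The part of depth, mitochondrial share, MALAT1 and marker levels in the results was not tested, and in bulk RNA fewer cells expressing a gene and less of its RNA per cell cannot be told apart.

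With CPI-455, RNA of all 3 pro-survival genes was lower, while the pro-death genes went in different directions. *BCL2L1* fell most, by 6.01-fold, and *BCL2* and *BAK1* fell by more than 2-fold. *MCL1* and *BCL2L11* fell by less than 2-fold and *PMAIP1* rose. *BAX*, *BID* and *BAD* did not pass the test, and *BIK* was too low to be tested. A gene was called when edgeR's quasi-likelihood test gave an adjusted p (FDR, Benjamini-Hochberg over all 17600 genes tested) below 0.05 and the change was at least 2-fold; fold changes are CPI-455 over vehicle throughout, so a negative log2 value is lower with CPI-455.

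Of the 10 genes, 9 passed the filter on low counts. None was called higher and 3 were called lower, *BCL2*, *BCL2L1* and *BAK1*. Among all genes tested, 21.0% were called higher and 21.3% lower (42.4% in either direction), and among protein-coding genes 15.6% and 24.4% (40.0%). On the FDR alone 1 member was higher and 5 were lower, beside 29.8% and 32.8% of all genes tested (62.6% in either direction). *PMAIP1* was also the 1 member higher at an unadjusted p below 0.05, and DESeq2 called 0 members higher. The replicates of the groups did not overlap for 8 of the 9 genes, which was the case for 81.9% of all genes tested. With shares this large among all genes, little can be read from 3 of 9. The median log2 fold change was -1.46 over the 3 pro-survival genes and -0.39 over the 6 tested pro-death genes, against -0.04 over all genes and -0.21 over protein-coding genes. With the trend with exon length and GC content removed these were -1.02 and -0.48, against 0.03 and -0.06. Within the pro-death genes the median was -0.80 for the 2 effectors and -0.25 for the 4 tested BH3-only genes without this removal. With the trend removed these were -1.14 and -0.14. With 2 libraries per group each p-value measures only the spread between these replicates. The methods call them biological without saying what separated them, so the spread may be partly technical.

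**Figure D1:**
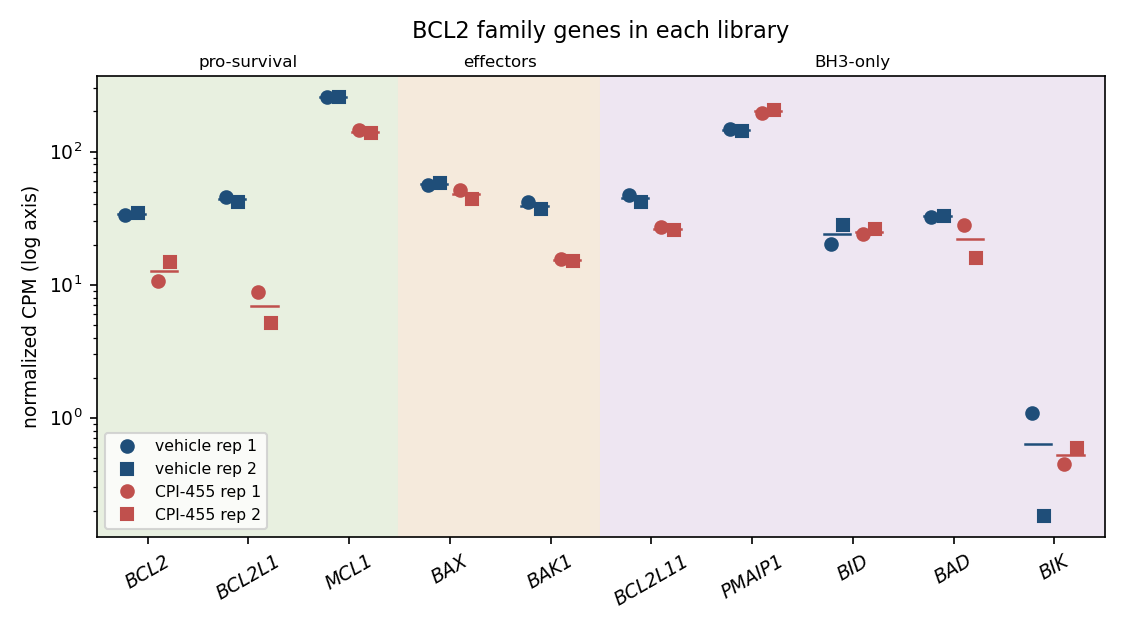
Level of each BCL2 family gene in each library, as normalized CPM on a log axis; blue is R1881 + vehicle, red is R1881 + CPI-455, circles are replicate 1, squares replicate 2, and bars the group means. The widest gap between the groups is at BCL2L1 (41.9 to 45.5 CPM against 5.16 to 8.77), PMAIP1 is the one tested gene with both red points clearly above the blue ones, and the points of BID and BIK overlap.

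Sequence before a RefSeq start (GRCh38.p14) is described for 5 members chosen for their contrasting changes, the 3 called lower, *PMAIP1*, which rose, and *BAX*, which did not pass the test. Each window was the 250 bases before the first start listed, on the strand of the gene. The annotation used for counting places some starts further upstream: the window of *BCL2* lies wholly inside the gene as counted, and 26 bases of that of *BCL2L1*, 17 of *BAK1*, 48 of *PMAIP1* and 60 of *BAX* do. Shown, 5′ to 3′, are the bases before both starts, which leaves none for *BCL2*. They lie at chr20:31723990-31724213 (minus strand) for *BCL2L1*, chr6:33580294-33580526 (minus) for *BAK1*, chr18:59899746-59899947 (plus) for *PMAIP1* and chr19:48954625-48954814 (plus) for *BAX*. Capitals mark the GC box, GGGCGG or CCGCCC on the other strand, and the E-box CACGTG, which reads the same on both strands; no 2 of the matches overlap.
BCL2L1: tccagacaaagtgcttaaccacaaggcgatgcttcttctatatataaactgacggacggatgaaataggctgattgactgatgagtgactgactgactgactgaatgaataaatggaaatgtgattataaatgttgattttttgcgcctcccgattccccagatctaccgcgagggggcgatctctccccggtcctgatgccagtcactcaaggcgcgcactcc
BAK1: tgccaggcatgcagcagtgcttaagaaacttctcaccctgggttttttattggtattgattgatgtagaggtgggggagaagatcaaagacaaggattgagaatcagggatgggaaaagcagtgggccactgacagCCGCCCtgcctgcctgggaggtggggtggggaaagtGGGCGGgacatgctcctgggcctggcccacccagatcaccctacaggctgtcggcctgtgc
PMAIP1: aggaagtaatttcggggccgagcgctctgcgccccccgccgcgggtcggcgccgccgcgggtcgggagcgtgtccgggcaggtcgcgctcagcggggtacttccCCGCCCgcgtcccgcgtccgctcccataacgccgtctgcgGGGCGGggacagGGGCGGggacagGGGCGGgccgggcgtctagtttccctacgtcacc
BAX: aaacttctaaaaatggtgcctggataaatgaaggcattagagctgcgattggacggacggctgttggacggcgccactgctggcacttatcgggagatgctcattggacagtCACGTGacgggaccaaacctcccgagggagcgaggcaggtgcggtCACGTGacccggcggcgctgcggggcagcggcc
The 250-base windows of *BCL2* and *BCL2L1* held no GC box, that of *BAX* held 1, that of *BAK1* 2 and that of *PMAIP1* 4. Of the first windows of 12071 tested genes, 66.5% held a GC box, and of all 35116 windows of this length 42.6% did. The *BAX* window held 4 E-boxes, of which 2, with its GC box, lie in the bases not shown, and 8.86% of the tested genes' windows held at least 1. CpG dinucleotides numbered 24 in the *BCL2* window, 17 in *BCL2L1*, 5 in *BAK1*, 36 in *PMAIP1* and 25 in *BAX*, around a median of 21 over the tested genes. The 3 genes called lower were thus unlike each other in CpG number, and *BAK1* was unlike the other two in GC boxes. Among members not described above, the first window of *BCL2L11*, which fell, held 3 GC boxes and 34 CpG dinucleotides. The first window of *BID* held 4 and 30 and that of *BAD* 1 and 17, in the same order. The matches are letters in a window, not sites shown to be bound. RefSeq windows were found for 8 of the 10 genes; *MCL1* and *BIK* had none in the table used.

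*BCL2*, the founding member, which holds BAX and the BH3-only proteins, spans chr18:63123346-63320128 on the minus strand (GRCh38, as are all positions here). It measured 33.2 and 34.8 CPM with vehicle against 10.6 and 14.7 CPM with CPI-455. Both CPI-455 libraries were far below both vehicle libraries. The log2 fold change was -1.46 ± 0.21 (SE), a 2.75-fold fall (adjusted p = 0.000227, edgeR with Benjamini-Hochberg). With the length and GC trend removed it was -1.02 (edgeR adjusted p = 0.00108), just beyond 2-fold. At 94 and 74 fragments the CPI-455 libraries carried far fewer than the 702 and 759 of the vehicle libraries.

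*BCL2L1* encodes BCL-xL, which holds BAX, BAK and several BH3-only proteins, and lies at chr20:31664452-31723989 on the minus strand. Its level was 45.5 and 41.9 CPM with vehicle against 8.77 and 5.16 CPM with CPI-455. It had the largest change of the 9 tested members, a 6.01-fold fall (log2 fold change -2.59 ± 0.24, SE; edgeR adjusted p = 1.493e-05). Its change was larger in size than that of 89.0% of all genes tested. The CPI-455 replicates differed from each other here, on 78 and 26 fragments, by less than either differed from vehicle. Of its 3314 exon bases 1424 (43.0%) are also exon of *ABALON*, a long non-coding RNA on the opposite strand, and since the counting ignored strand and left out fragments lying over exons of both genes, the *BCL2L1* value comes from the remaining bases. *ABALON* itself, looked up because of this overlap and so named after its values were seen, held 97 and 94 fragments with vehicle against 0 with CPI-455, at least 9.54-fold lower against a floor of 3 fragments per library.

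*MCL1*, the short-lived pro-survival protein that holds BAK, BIM and NOXA, was the pro-survival gene with the highest level. It is at chr1:150574551-150579738 on the minus strand and measured 258 and 255 CPM with vehicle against 144 and 138 CPM with CPI-455. The replicates lay close together in both groups and the groups were far apart. The log2 fold change of -0.86 ± 0.11 (SE) was a 1.82-fold fall (edgeR adjusted p = 0.000107), which missed the 2-fold threshold. On library totals alone, without the TMM scaling, it was -1.05 and would have been called. After removal of the trend of log2 fold change with exon length and GC content it was -0.58 (edgeR adjusted p = 0.000685).

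*BAX*, the effector that moves from the cytosol to mitochondria, lies at chr19:48954815-48961798 on the plus strand. Its level was 56.4 and 58.2 CPM with vehicle against 51.8 and 43.8 CPM with CPI-455. Both CPI-455 values were below both vehicle values by a small margin, and the difference did not pass the test (log2 fold change -0.25 ± 0.14, SE; edgeR adjusted p = 0.152). With the length and GC trend removed it was -0.56 (adjusted p = 0.00331, edgeR), still under 2-fold.

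*BAK1*, the effector that resides in the mitochondrial membrane, was called lower. The gene is at chr6:33572547-33580293 on the minus strand and measured 41.5 and 37.0 CPM with vehicle against 15.5 and 15.1 CPM with CPI-455. The CPI-455 replicates were nearly equal and well below vehicle. The fall was 2.56-fold (log2 fold change -1.36 ± 0.17, SE; edgeR adjusted p = 0.000120). It was the one pro-death member called. With the length and GC trend removed the log2 fold change of *BAK1* was -1.73 (edgeR adjusted p = 1.518e-05).

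Among the BH3-only genes *PMAIP1* was the one that rose. It encodes NOXA, the partner of MCL1, and lies at chr18:59899948-59904306 on the plus strand. Its level was 147 and 142 CPM with vehicle against 196 and 204 CPM with CPI-455. Both CPI-455 libraries were above both vehicle libraries. The rise was 1.38-fold (log2 fold change 0.47 ± 0.11, SE; edgeR adjusted p = 0.00440) and was not called. It was positive in each of 11 alternative fits, and was 0.47 without vehicle replicate 1 (edgeR adjusted p = 0.0605) and 0.42 without vehicle replicate 2 (edgeR adjusted p = 0.103).

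*BCL2L11* encodes BIM, which binds all the pro-survival proteins and activates BAX and BAK, and spans chr2:111119378-111168447 on the plus strand. It measured 47.3 and 42.0 CPM with vehicle against 26.9 and 25.6 CPM with CPI-455. The groups were apart, with a 1.70-fold fall (log2 fold change -0.76 ± 0.16, SE; edgeR adjusted p = 0.00221). Without vehicle replicate 1 the log2 fold change was -0.70 ± 0.31 (SE; edgeR adjusted p = 0.0521), and with the length and GC trend removed it was -0.40.

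*BID*, which caspase-8 cleaves to carry the death receptor signal to mitochondria, lies at chr22:17734138-17774770 on the minus strand. Its level was 20.4 and 28.1 CPM with vehicle against 24.1 and 26.0 CPM with CPI-455. Both CPI-455 values lay between the vehicle values. The log2 fold change was 0.04 ± 0.20 (SE; edgeR adjusted p = 0.869), and its sign turned when the libraries were scaled by their totals alone (-0.15).

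*BAD*, the BH3-only protein that AKT and other survival kinases phosphorylate, is at chr11:64269830-64284704 on the minus strand. It measured 32.2 and 33.0 CPM with vehicle against 28.0 and 15.9 CPM with CPI-455. Here the 2 CPI-455 libraries stood apart from each other, on 249 and 80 fragments. The log2 fold change was -0.54 ± 0.24 (SE; edgeR adjusted p = 0.0729). Without CPI-455 replicate 1 it was -1.06 and called, and with the length and GC trend removed -1.11 (adjusted p = 0.000818, edgeR) and called, so the call on *BAD* rests on these choices. *BAD* has the highest exon GC content of the 10 genes (64.7%), and 404 of its exon bases (23.7%) are shared with *GPR137* on the opposite strand.

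*BIK*, a BH3-only protein of the endoplasmic reticulum, lies at chr22:43110748-43129712 on the plus strand. It was near the floor, at 23 and 4 fragments with vehicle against 4 and 3 with CPI-455. The ratio of CPI-455 to vehicle over the pooled fragments was 0.799, with an exact 95% interval of 0.294 to 1.88 that covers counting error only, so neither a rise nor a fall was detectable at this depth.

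**Figure D2:**
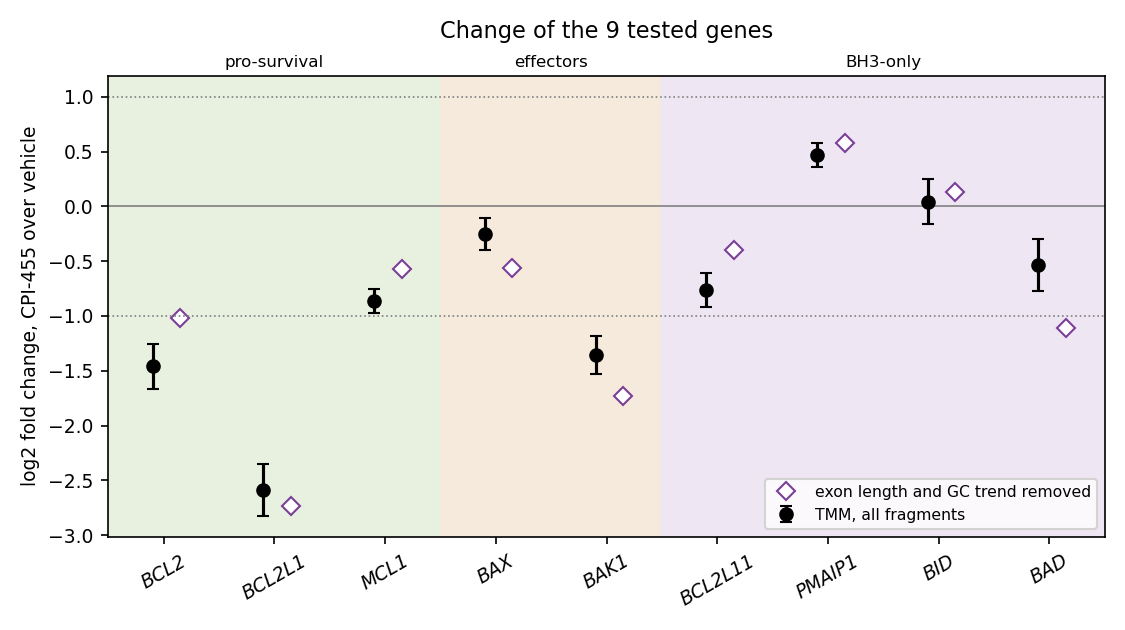
Log2 fold change, CPI-455 over vehicle, of the 9 tested genes; black points are the edgeR estimates with bars of ± 1 SE, open diamonds the estimates after the trend with exon length and GC content was removed, and dotted lines mark 2-fold. BCL2, BCL2L1 and BAK1 lie beyond 2-fold in both, BCL2 only just as a diamond (-1.02). MCL1 and BCL2L11 also shrink, and BAD passes 2-fold only as a diamond (-1.11).

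Read per kilobase of exon, which allows genes of different length to be compared within a library, *PMAIP1* and *MCL1*, a binding pair, were the most abundant of the 10 transcripts in both groups. In the vehicle group they stood at 64.6 and 58.7 CPM per kilobase, followed by *BAX* at 22.1, *BAD* at 19.1, *BAK1* at 17.7, *BCL2L1* at 13.2, *BCL2L11* at 6.71, *BID* at 5.45, *BCL2* at 2.89 and *BIK* at 0.667. Only *BCL2L11* and *BID* had overlapping replicates among neighbours in that order. In the CPI-455 group *PMAIP1* stood at 89.5 and *MCL1* at 32.3 CPM per kilobase, so the pair drew apart. *BCL2L1* went from rank 6 to rank 8, at 2.10 CPM per kilobase, below *BID* at 5.63 and *BCL2L11* at 3.94. *BAX* at 18.5, *BAD* at 12.8 and *BAK1* at 6.91 kept ranks 3 to 5, and *BCL2* at 1.07 and *BIK* at 0.548 stayed last. The lengths are those of all annotated exons of a gene, which understates genes with long alternative exons such as *BCL2* (11765 exon bases). They also include bases shared with another gene, where fragments were left out, 1424 in *BCL2L1* and 404 in *BAD*. The levels of *BCL2L1* and *BAD* are thus understated. Their ranks, shares of sums and levels of ratios rest on this choice of length.

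The levels per kilobase were also summed over each side of the family. The 3 pro-survival genes together had 75.6 and 74.0 CPM per kilobase with vehicle and 36.5 and 34.4 with CPI-455. The 7 pro-death genes together had 138 and 135 with vehicle against 141 and 135 with CPI-455. The pro-survival sum was thus lower in both CPI-455 libraries, while the pro-death sums of the 2 groups overlapped. The latter depends on the scaling and on *PMAIP1*, by checks added after the data had been seen: on library totals alone the pro-death sum was 149 and 143 with vehicle against 132 and 126 with CPI-455, and without *PMAIP1* (TMM) it was 72.3 and 71.3 against 53.4 and 43.3, without overlap in either. The pro-survival sum on library totals was 81.6 and 78.2 against 34.2 and 32.2. The makeup of the pro-death sum differed: *PMAIP1* was 47.7 and 47.1% of the pro-death sum with vehicle and 62.2 and 67.8% with CPI-455. Within the pro-survival sum *MCL1* went from 78.1 and 78.9% to 90.3 and 91.8%, and *BCL2L1* from 18.1 and 17.1% to 7.26 and 4.53%.

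**Figure D3:**
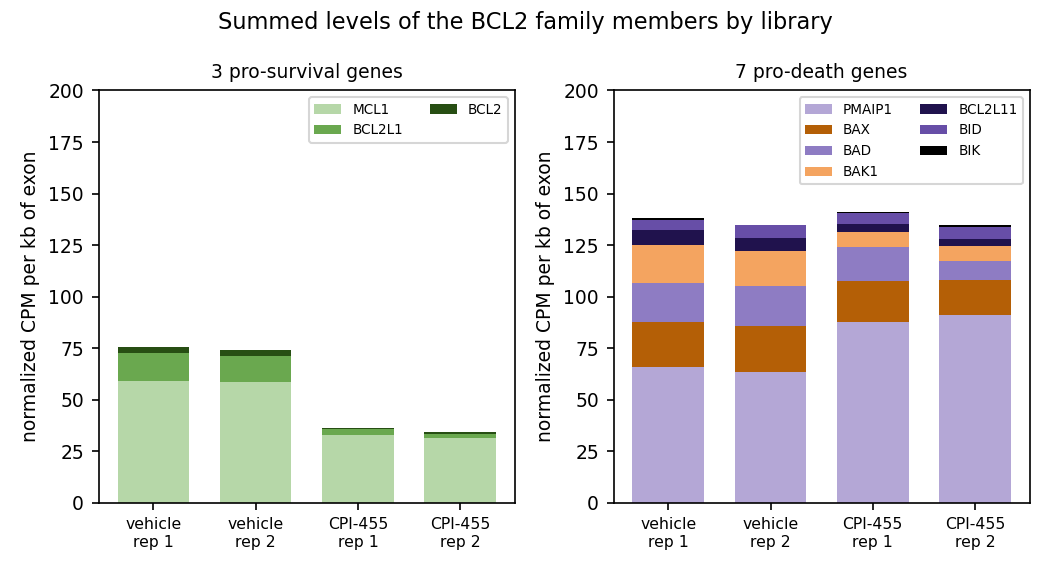
Stacked normalized CPM per kilobase of exon of the 3 pro-survival genes (left) and the 7 pro-death genes (right) in each of the 4 libraries. The pro-survival bars drop from 74.0 to 75.6 with vehicle to 34.4 to 36.5 with CPI-455, and the pro-death bars stay between 135 and 141 with a larger PMAIP1 share.

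A ratio of 2 genes in the same library does not depend on the scaling between libraries. The summed pro-death to pro-survival ratio was 1.83 and 1.82 with vehicle against 3.87 and 3.92 with CPI-455, a log2 difference of 1.09. It was 0.79 with the length and GC trend removed. A pair of checks on single genes was added after the data had been seen: without *PMAIP1* in the sum the difference was 0.50, and without *MCL1* it was 2.36. The ratio of *BAX* to *BCL2*, often used as an index of readiness to die, was 7.72 and 7.61 with vehicle against 22.3 and 13.6 with CPI-455. The log2 difference of 1.18 dropped to 0.45 with the trend removed. That of *BAX* to *BCL2L1* was 1.59 and 1.78 with vehicle against 7.57 and 10.9 with CPI-455 (log2 difference 2.43), and the ratio of *BAK1* to *BCL2L1* was 1.37 and 1.32 against 2.65 and 4.38 (1.34). The balance of *BAK1* with *MCL1* went the other way, 0.318 and 0.286 with vehicle against 0.213 and 0.216 with CPI-455 (log2 difference -0.49, or -1.14 with the trend removed). Apart from this last one, each ratio was higher in both CPI-455 libraries than in either vehicle library. None of them overlapped between the groups, and for 2 against 2 libraries an exact two-sided permutation test cannot give a p below 0.333.

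Over all 18 pairs of a tested pro-death with a pro-survival gene, the ratio was higher in both CPI-455 libraries for 15 pairs, lower for 1 and overlapping for 2. With the trend removed these counts were 13, 3 and 2. The share over all pairs of genes was not computed. Among single genes tested, 81.9% did not overlap between the groups. The pairs share genes and are not independent of each other. Their directions restate the order of the fold changes given above, where *BCL2L1* and *BCL2* fell most of the tested members. All 6 ratios to *BCL2L1* were higher, with a median log2 difference of 2.25, as were 5 of the 6 to *BCL2* (1.00) and 4 of the 6 to *MCL1* (0.42). With the trend removed 6, 4 and 3 were higher and 0, 1 and 2 lower, in the same order. The order of the fold changes then differed, as *BAK1* (-1.73) and *BAD* (-1.11) fell more than *BCL2* (-1.02). *PMAIP1* to *MCL1*, the NOXA pair, was 1.11 and 1.09 with vehicle against 2.66 and 2.89 with CPI-455. *BCL2L11* to *MCL1* hardly moved, at 0.120 and 0.108 against 0.123 and 0.122.

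**Figure D4:**
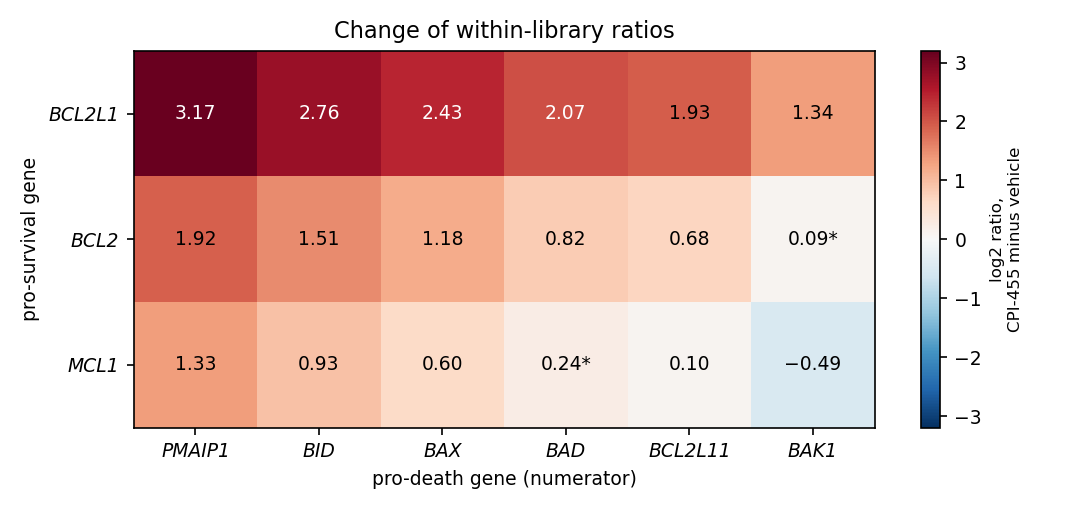
Log2 difference (CPI-455 minus vehicle, 2 libraries each) of the within-library ratio of each tested pro-death gene (columns) to each pro-survival gene (rows), from counts per kilobase; an asterisk marks ratios that overlap between the groups. All ratios to BCL2L1 are positive, from 1.34 for BAK1 to 3.17 for PMAIP1, and BAK1 to MCL1 is the one ratio below 0 (-0.49).

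Genes around the 10 members were read from the same fit in 4 lists, whose counts stand beside the 21.0% called higher, the 21.3% called lower and the median of -0.04 over all genes tested (0.03 with the length and GC trend removed; protein-coding genes -0.21 and -0.06). Of 14 other genes of the BCL2 family or related to it, which include the BAX-binding *MOAP1*, not itself a family member, 10 passed the filter, 5 were called lower and none higher, and their median change was -0.89 (-0.71 with the trend removed, both log2). By edgeR's FDR alone 7 were lower and 2 higher, where 32.8% and 29.8% of all genes tested were, and DESeq2 called none higher. *BOK* was not called by DESeq2 (adjusted p = 0.0538), nor without vehicle replicate 1 (-2.18) or without vehicle replicate 2 (-2.86). *MOAP1* was not called without vehicle replicate 1 (-0.97) or without CPI-455 replicate 1 (-0.98). The pore-forming relative *BOK* was called lower on few fragments, 68 and 43 with vehicle against 7 and 0 with CPI-455, pooled 5.14-fold lower with an exact 95% counting interval of 2.42 to 13.1. Also called lower were the BH3-only gene *BMF* (log2 fold change -1.78), the mitophagy receptors *BNIP3L* (-1.35) and *BCL2L13* (-1.23), and *MOAP1* (-1.08). With the trend removed *BNIP3L* (-0.95) and *BCL2L13* (-0.81) were under 2-fold and no longer called. *BCL2L2*, which encodes the pro-survival BCL-w, and the mitophagy gene *BNIP3* fell by less than 2-fold (-0.71 and -0.67). *BBC3*, which encodes the BH3-only protein PUMA, rose by 0.70 on the log2 scale (edgeR adjusted p = 0.00197), from 65.4 and 66.7 CPM to 120 and 94.2 CPM. With the trend removed the rise of *BBC3* was 0.48. *BCL2L12* rose by 0.78 (0.41 with the trend removed), and another gene covers 33.1% of its exon bases. *HRK* had 0.26 without passing the test, but 0.56 with the trend removed (edgeR adjusted p = 0.0122). *BCL2A1* had 0 fragments in all 4 libraries, where 3 fragments, the limit a count of 0 allows, are 0.137 to 0.595 CPM. *BCL2L10*, *BCL2L14* and *BCL2L15* had at most 11 fragments in any library.

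Downstream of BAX and BAK, all 18 genes of the mitochondrial arm were tested, 1 was called higher and 1 lower, and the median log2 fold change was -0.45 (-0.14 with the length and GC trend removed). *CASP9*, the initiator caspase of the apoptosome, rose from 8.38 and 7.28 CPM to 37.7 and 34.1 CPM (log2 fold change 2.20 ± 0.20, SE; edgeR adjusted p = 1.303e-05). *BIRC3*, an inhibitor of apoptosis protein, was called lower on 26 and 35 fragments with vehicle against 1 and 0 with CPI-455, a pooled 19.8-fold difference with an exact 95% counting interval of 3.42 to 794. The call on *BIRC3* was lost without vehicle replicate 1 and without vehicle replicate 2, and without CPI-455 replicate 2 there were 3 genes called lower. The remaining 16 were under 2-fold or did not pass the test.

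Upstream of BID, 11 of 13 genes of the death receptor arm were tested, 6 were called lower and 1 higher, with a median of -1.16 (-0.82 with the trend removed). With the trend removed, alone or with the replicate block, 4 were called lower, those named here. DESeq2 called 5 lower. The largest fall was in the kinase *RIPK1*, from 43.6 and 46.1 CPM to 5.06 and 3.77 CPM (log2 fold change -3.30). The TRAIL receptor *TNFRSF10A* was called lower on 47 and 37 fragments against 2 and 1, a pooled 9.08-fold difference (exact 95% counting interval 3.0 to 44.9), and its call was lost when either vehicle library was left out. The adaptor *FADD* fell by 2.42 on the log2 scale, another gene covering 54.9% of its exon bases, and the TNF receptor *TNFRSF1A* fell by 1.30. *TNFRSF25* was the gene called higher (1.48).

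Of 18 genes that control MCL1 and the BH3-only proteins, all tested, 3 were called higher and 4 lower, with a median of -0.14 (0.02 with the trend removed). *DDIT3*, which encodes CHOP, a stress transcription factor known to act on *BCL2L11* and *BCL2*, rose from 25.8 and 30.1 CPM to 274 and 215 CPM (log2 fold change 3.13 ± 0.16, SE; edgeR adjusted p = 7.878e-07), and a neighbour covers 28.0% of its exon bases. The kinases *PIM1* (1.27) and *AKT2* (1.04), both known to act on BAD, were called higher. *AKT2* lay near the 2-fold threshold and was not called on library totals (0.85), without the count filter (0.88), without vehicle replicate 2 (0.90), without CPI-455 replicate 1 (0.80) and with the trend removed and the replicate block together (0.9959). The dynein light chain *DYNLL2* (-2.55), which holds BMF at the cytoskeleton, the ubiquitin ligase subunit *BTRC* (-2.14), the transcription factor *FOXO3* (-1.34), an activator of *BCL2L11*, and *HUWE1* (-1.24), a ubiquitin ligase for MCL1, were called lower. Protein amounts were not measured in these data.

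**Figure D5:**
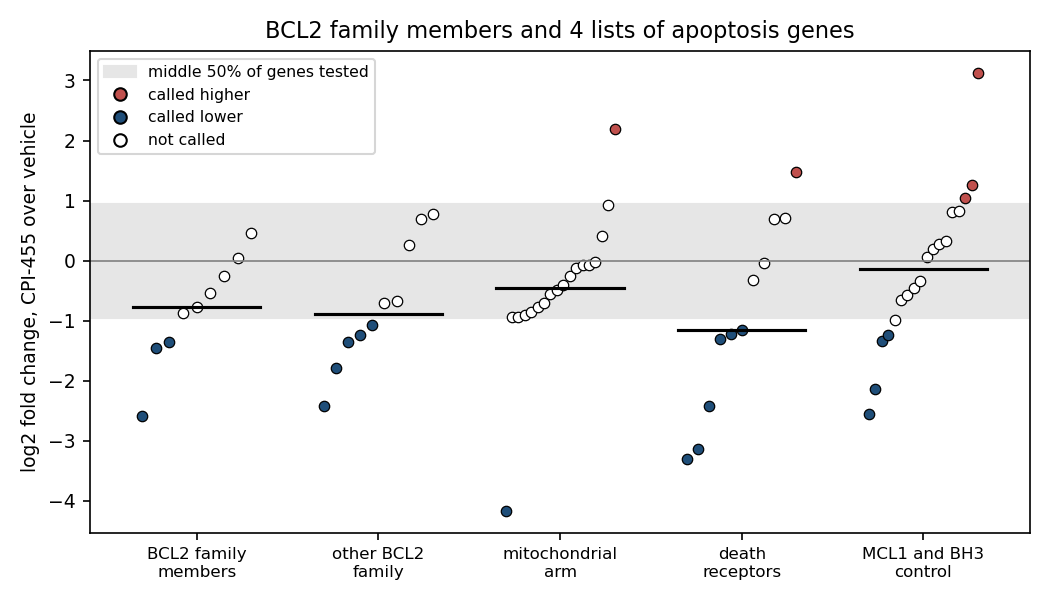
Log2 fold change, CPI-455 over vehicle, of each tested gene among the BCL2 family members and 4 lists of related genes; red and blue points were called higher and lower, open points were not called, black bars are medians, and the grey band holds the middle 50% of all genes tested (-0.96 to 0.94). The medians run from -1.16 for the death receptor arm to -0.14 for the genes that control MCL1 and BH3-only proteins.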

How the data were processed

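RNA-seq of 4 LNCaP libraries was analysed, grouped by treatment and replicate from the sample labels. After trimming with Trim Galore and STAR alignment to GRCh38, the authors ran featureCounts (its version, v1.5.0-p1, is from the file headers) and deposited raw fragment counts per gene without normalization. The counting ignored strand and dropped fragments that aligned more than once or touched more than one gene. Depth per library is given with the results; 1 fragment corresponds to 0.0458 to 0.198 CPM, and counting intervals and floors of 3 counts cover counting error only. Symbols were matched for 56558 of 60675 genes.

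Counts were normalized with TMM, filtered with filterByExpr (minimum 10) and tested with edgeR 4.0.16 in R 4.3.3 (glmQLFit, glmQLFTest, no covariates). Called genes had an FDR below 0.05 and at least a 2-fold change. CPM are scaled by TMM library sizes, and CPM per kilobase uses the exon bases of the deposited annotation. Alternatives were RLE size factors, library totals, no filter, DESeq2 1.42.0, a replicate block, removal of the exon length and GC trend (mgcv 1.9.3, prior count 2), both together, and leaving out each library. The labels do not say whether the replicate numbers pair the libraries. Same-numbered deviations correlated at 0.04 over 2 pairs, which are too few to decide it.

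The genes and lists were chosen with earlier results of these data known. Named are all 10 members, all 14 other family and related genes and, from each of the other 3 lists, up to 4 called genes per direction with the largest change, with the KDM5 genes and the cell type markers as checks. Promoter windows are RefSeq sequence (GRCh38.p14). Splicing and protein data were not analysed here, and 1 further list of genes is not reported here.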

Additional observations from a re-analysis of the deposited data

How the results depend on the processing

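Over 11 alternatives the 9 tested members gave 99 values, of which 90 kept their direction and whether they were called. The FDR alone was below 0.05 for *BAX* in 5 of the 11, *BAD* in 6, and *BCL2L11* and *PMAIP1* in 9 each. *BCL2*, *BCL2L1* and *BAK1* were called lower in all 11, with log2 fold changes of -1.73 to -1.02, -3.10 to -2.36 and -1.73 to -1.30. *MCL1* was called on library totals (-1.05) and without the count filter (-1.02), *BAD* with the length and GC trend removed (-1.11) and that with the replicate block (-1.14), and leaving out 1 library gave *BAD* -1.06 to -0.26. *BID* turned negative on library totals (-0.15) and without the filter (-0.11), and ran from -0.19 to 0.27 with 1 library left out. Library totals and no filter shifted all genes by -0.19 and -0.16, and of the called genes 40.7% and 42.2% were then higher, against 49.6%. The pro-survival median was -1.02 with the trend removed, -1.02 with the replicate block as well, and -1.73 to -1.23 with 1 library left out. The pro-death median was -0.58 on library totals and -0.57 to -0.26 with 1 library left out. The trend moved the log2 differences of *BAX* to *BCL2* to 0.45, *BAK1* to *MCL1* to -1.14 and the summed ratio to 0.79, and, in checks chosen after seeing the data, the summed ratio was 0.50 without *PMAIP1* and 2.36 without *MCL1*.

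With the trend removed, alone or with the replicate block, 3 other family and related genes were called lower and 2 genes of the mitochondrial arm higher and 2 lower. On library totals and without the filter 5 of the mitochondrial arm were called lower. With 1 library left out the other family and related genes had 3 to 5 called lower and the mitochondrial arm 0 to 3. The replicate block alone changed no member's call (*BCL2* -1.45) but gave *BAD* an edgeR FDR of 0.0116. Whether the numbers pair the libraries is not known. Leaving out 1 library leaves a lone sample that is assumed to vary like the other group. The cause of these shifts was not tested. Depth limits *BIK*, *BOK*, *BIRC3* and *TNFRSF10A*, with few fragments with CPI-455.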
